A study of Mus musculus with 5 samples.

Results

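The 12 Mb of assembled sequence next to the centromere of each mouse autosome were described in chromatin immunoprecipitation sequencing (ChIP-seq) of the sirtuin SIRT7. Members were the 1 Mb bins of chromosomes 1 to 19 that start from 3000001 up to 14000001 in the mm10 build and hold a mean of at least 100 reads over the libraries. There were 12 such bins on each of 19 chromosomes, 228 of the 2582 bins tested, and no candidate bin failed the read minimum. The rest of the autosomes gave 2186 bins, against which the members were set.

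Mouse chromosomes carry the centromere at one end, so the first assembled bins lie beside long arrays of satellite repeats that a reference genome holds only in small part. Ribosomal RNA gene arrays also lie near the centromere of several mouse chromosomes. SIRT7 is an NAD-dependent deacetylase that is found largely in the nucleolus, where ribosomal RNA is made, and that is known to act on histone H3.

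The cells were female mouse TTF cells, a name that the labels do not spell out, of a C57BL6/CAST hybrid, and they were either wild type (WT) or SIRT7-KO. Both genotypes were crosslinked for 10 min in 1% formaldehyde, chromatin was sheared to between 300 and 500 bp, and 1% was kept as input. The 4 groups were WT ChIP with 2 libraries, KO ChIP with 1, WT input with 1 and KO input with 1. The labels do not say whether a genotype is 1 clone or whether each WT library had a culture of its own, so p-values hold against a spread between libraries that may be technical.

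The WT ChIP libraries held 174003957 and 167007601 reads, the KO ChIP library 4968189, and the WT and KO inputs 224205689 and 219168466, of which between 9.57% and 9.72% lay in the proximal bins. The median proximal bin held 61931 and 58527 reads (WT ChIP), 1806 (KO ChIP), 80607 (WT input) and 81667 (KO input), and the median counting error of its KO log2(ChIP/input) was 0.034. Between the WT libraries the median chi-square per proximal bin was 3.97, against 0.455 for counting alone, so they differed by more than counting noise. A bin of this width does not show whether Sirt7 is deleted, and the labels' genotypes were taken as given.

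The bins' own sequence was not used here, so start regions of genes in them are shown from RefSeq (GRCm38.p6, the mm10 assembly), each 300 bases long and mostly upstream of the start. Sox1, a transcription factor of neural development, and Sema3d, a secreted semaphorin, stand for bins far above and far below input in WT ChIP. Capitals mark CG, the same letters on both strands, which occurs 37 times in the Sox1 sequence and 8 times in that of Sema3d. At least 1 CG occurs in 94.95% of the 17274 protein-coding promoters of that length, with a median of 13. Both genes were picked as examples, and whether CG number goes with ChIP level was not tested.
Sox1, chr8:12395269-12395568, + strand: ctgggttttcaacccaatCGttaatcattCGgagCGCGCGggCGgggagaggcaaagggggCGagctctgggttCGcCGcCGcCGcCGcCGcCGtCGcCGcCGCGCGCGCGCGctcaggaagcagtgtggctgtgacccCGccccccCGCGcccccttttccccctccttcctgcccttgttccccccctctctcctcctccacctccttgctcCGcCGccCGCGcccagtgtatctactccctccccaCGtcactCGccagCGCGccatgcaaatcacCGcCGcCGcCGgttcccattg
Sema3d, chr5:12382916-12383215, + strand: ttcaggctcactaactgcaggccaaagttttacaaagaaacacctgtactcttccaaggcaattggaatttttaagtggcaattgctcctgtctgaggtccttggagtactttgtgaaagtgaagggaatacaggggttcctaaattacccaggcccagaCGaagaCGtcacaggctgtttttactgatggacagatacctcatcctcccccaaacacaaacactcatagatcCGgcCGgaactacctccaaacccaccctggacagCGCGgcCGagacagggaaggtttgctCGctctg

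Gm3043 and Gm8271 are predicted genes from separate bins of chromosome 14 where nearly all reads were left without an allele. Their start regions differ at 1 of 300 bases, in capitals, and are shown because they illustrate how alike sequences in such bins can be.
Gm3043, chr14:3688538-3688837, + strand: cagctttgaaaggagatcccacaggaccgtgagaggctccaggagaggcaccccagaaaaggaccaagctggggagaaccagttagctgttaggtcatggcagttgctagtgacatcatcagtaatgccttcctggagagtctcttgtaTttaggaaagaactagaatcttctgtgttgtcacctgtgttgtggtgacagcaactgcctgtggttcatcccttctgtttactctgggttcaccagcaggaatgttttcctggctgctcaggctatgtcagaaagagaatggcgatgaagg
Gm8271, chr14:5185543-5185842, + strand: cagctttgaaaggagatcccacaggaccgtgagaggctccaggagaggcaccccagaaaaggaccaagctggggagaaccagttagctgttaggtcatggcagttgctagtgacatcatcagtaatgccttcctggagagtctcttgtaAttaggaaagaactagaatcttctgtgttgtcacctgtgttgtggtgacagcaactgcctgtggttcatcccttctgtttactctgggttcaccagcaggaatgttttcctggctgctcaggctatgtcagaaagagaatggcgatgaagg

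Each read was deposited as genome1, genome2 or unassigned, and the unassigned share of the proximal bins was above that of the other autosomal bins in all 5 libraries. The median over proximal bins was 41.4% and 43.0% (WT ChIP), 45.3% (KO ChIP), 43.6% (WT input) and 44.0% (KO input). Over the other autosomal bins it was 39.0% and 40.4%, 42.8%, 41.5% and 41.7%, in the same order. The inputs showed the difference as well as the ChIP libraries did, and with summed counts it was 5.49 points (WT ChIP), 5.86 (KO ChIP), 4.96 (WT input) and 5.19 (KO input). No test was made, since bins of 1 library share their depth and their neighbours.

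The share was highest in the first bin, from 3000001 to 4000000. Its median over the 19 chromosomes was 58.6% and 60.1% (WT ChIP), 62.3% (KO ChIP), 60.5% (WT input) and 61.3% (KO input). In the second bin the medians lay between 43.0% and 47.1%, and in the tenth between 37.1% and 41.0%. Over the 209 bins after the first they were 40.9% and 42.4% (WT ChIP), 44.5% (KO ChIP), 42.7% (WT input) and 43.2% (KO input), which is still above the other autosomal bins. The first bin had a larger unassigned share than the median of the 11 bins after it on 17 of 19 chromosomes in WT ChIP and both inputs, and on 18 of 19 in KO ChIP. Across the 228 bins the Spearman correlation of bin number and unassigned share in WT input was -0.30, and over the 209 bins after the first it was -0.17. Neighbouring bins share sequence families and their library, so these are descriptions.

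**Figure D1:**
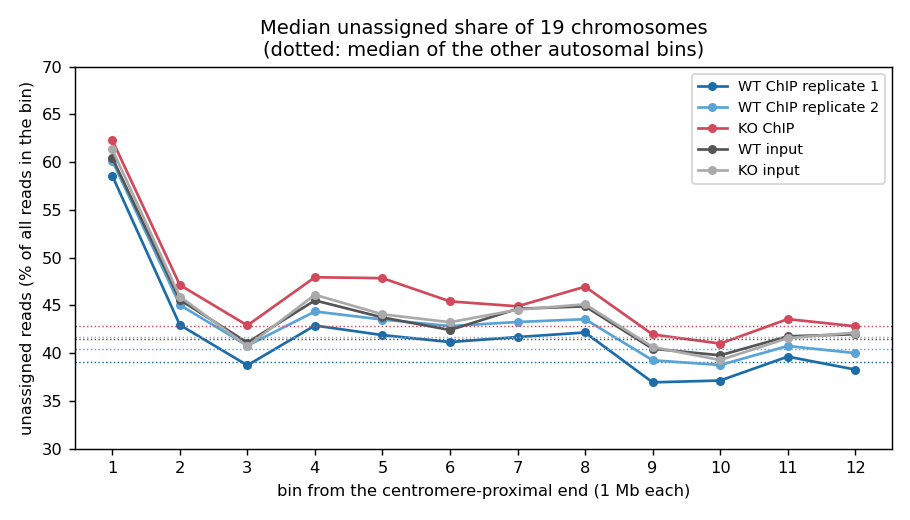
Median unassigned share (% of all reads in a bin, y axis) of 19 chromosomes for each of the 12 bins counted from the centromere-proximal end (x axis), with 1 line per library; dotted lines are the medians of the other autosomal bins. The first bin stands at 58.6% to 62.3% in the 5 libraries, above each later bin.

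In WT input 8 of 228 proximal bins (3.51%) were over 90% unassigned, against 24 of 2186 other autosomal bins (1.10%). On chromosome 14 the bins from 3000001 to 7000000 had 99.7%, 98.3%, 98.0% and 97.8%. These hold a family of predicted genes, among them the pair printed above. On chromosome 7 the bins from 8000001 to 10000000 had 98.5% and 99.0%, and they hold Vmn2r genes, receptors of the vomeronasal organ for social odours. The others were the first bin of chromosome 9 and a bin of chromosome 5 from 11000001 to 12000000, with Speer1, at 91.5%. The 8 bins hold 82 protein-coding genes, of which 79 had a RefSeq start region, and in 65 of these at least 50% of the 25-base words also occurred in another gene's start region. Over the 17274 start regions of the table the share was 10.1%. For all proximal bins 1289 of 1675 genes, 77.0%, had such a sequence, which is under 80%, so a comparison of promoter sequence over the whole set is void.

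A few first bins held far more reads than their neighbours. On chromosome 9 that bin, with Alkbh8, Cwf19l2 and Gucy1a2, had 1397510 reads in WT input and 1553184 in KO input, 19.3 times the median of the next 11 bins in both. On chromosome 11 it had 6.14 and 6.56 times that median, and on chromosome 12, where Dnmt3a, a DNA methyltransferase, and Pomc, the precursor of melanocortins, start, 3.56 and 3.46 times. The unassigned share in WT input was 83.0% (95% Wilson interval 82.8% to 83.1%) on chromosome 11, 97.89% (97.87% to 97.92%) on chromosome 9 and 86.5% (86.4% to 86.6%) on chromosome 12. Intervals here and below cover counting error only.

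The WT ChIP libraries differed from each other in 2 of these bins. Levels in ChIP over input are given as log2(ChIP/input), from TMM-scaled CPM plus 1. On chromosome 9 the first bin was at -0.21 in WT replicate 1, 0.11 in WT replicate 2 and 0.14 in KO. On chromosome 12 it was at -0.27, 0.030 and -0.0086. On chromosome 11 the 3 libraries agreed in sign, at 0.34, 0.32 and 0.27. The first 2 of these bins were the proximal bins whose WT libraries differed by over 0.1, 2 of 228 against 5 of 2186 other autosomal bins. Without these 3 bins the first-bin median of the unassigned share was 55.4% and 56.9% (WT ChIP), 57.6% (KO ChIP), 57.8% (WT input) and 57.4% (KO input) over 16 chromosomes, and its correlation with bin number in WT input was -0.27 over 225 bins.

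WT ChIP over input asks where SIRT7 ChIP signal left the input level in wild-type cells. Of 228 proximal bins, 83 lay above and 87 below input (edgeR quasi-likelihood test, Benjamini-Hochberg adjusted p under 0.05), 74.6%, while 75.1% of the 2582 bins tested were called in either direction, 37.6% above and 37.5% below. The members' share is near that background. Among the other autosomal bins 841 lay above and 821 below. Without the first bins of chromosomes 9, 11 and 12, 82 of 225 lay above and 86 below. The differences were small: 13 of the 228 (5.70%) were called with a log2 value over 0.2 in size, beside 239 of all bins tested (9.26%), and 0 were over 0.5, beside 3.

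Taken as medians of log2(ChIP/input), the proximal bins stood at 0.00041 and -0.0024 for WT and at -0.019 for KO. For the other autosomal bins it was -0.0028, 0.0018 and -0.017. The middle 50% of proximal bins ran from -0.073 to 0.076 in WT replicate 1, from -0.074 to 0.073 in WT replicate 2 and from -0.10 to 0.061 in KO. For the other autosomal bins the middle 50% ran from -0.076 to 0.091, from -0.079 to 0.096 and from -0.10 to 0.080. The last 12 counted bins of each autosome, which are the opposite chromosome ends, had medians of 0.087, 0.084 and 0.052, and among those 228 bins 132 lay above and 45 below input in WT.

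Within the 12 Mb the first bin was the highest and the last the lowest. The medians of the first bin over 19 chromosomes were 0.048 and 0.066 in WT and 0.058 in KO, and 11 of 19 first bins lay above and 3 below input in WT. At the last bin, from 14000001 to 15000000, they were -0.048, -0.058 and -0.079, with 4 above and 11 below. Over the 16 chromosomes other than 9, 11 and 12 the first-bin medians were 0.055, 0.060 and 0.048, with 10 above and 2 below input in WT. The 10 bins between had medians from -0.031 to 0.044 in WT and from -0.072 to 0.010 in KO. Spearman correlations of bin number and log2(ChIP/input) over 228 bins were -0.10 and -0.13 in WT and -0.17 in KO. Without the first bins they were -0.052, -0.054 and -0.071 over 209 bins, and without the first bins of chromosomes 9, 11 and 12 they were -0.12, -0.11 and -0.15 over 225 bins.

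On 14 of 19 chromosomes the first bin was above the median of its next 11 bins in all 3 ChIP libraries, and on 3 it was below in all 3. Leaving out chromosomes 9, 11 and 12 gave 13 and 3 of 16. Chromosome 4 is an example of the first kind, where the first bin, with the ribosomal protein gene Rps20 and the transcription factor gene Plag1, was at 0.12 and 0.12 in WT and 0.069 in KO. That was 0.21, 0.20 and 0.23 above the next 11 bins. On chromosome 15, where Ghr encodes the growth hormone receptor, the first bin was at -0.12, -0.12 and -0.065. The KO library carried the first-bin pattern too, and the gene number of the first bin was a median of 9, against 4 in the 11 bins after it; the part of gene number in the pattern was not tested.

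**Figure D2:**
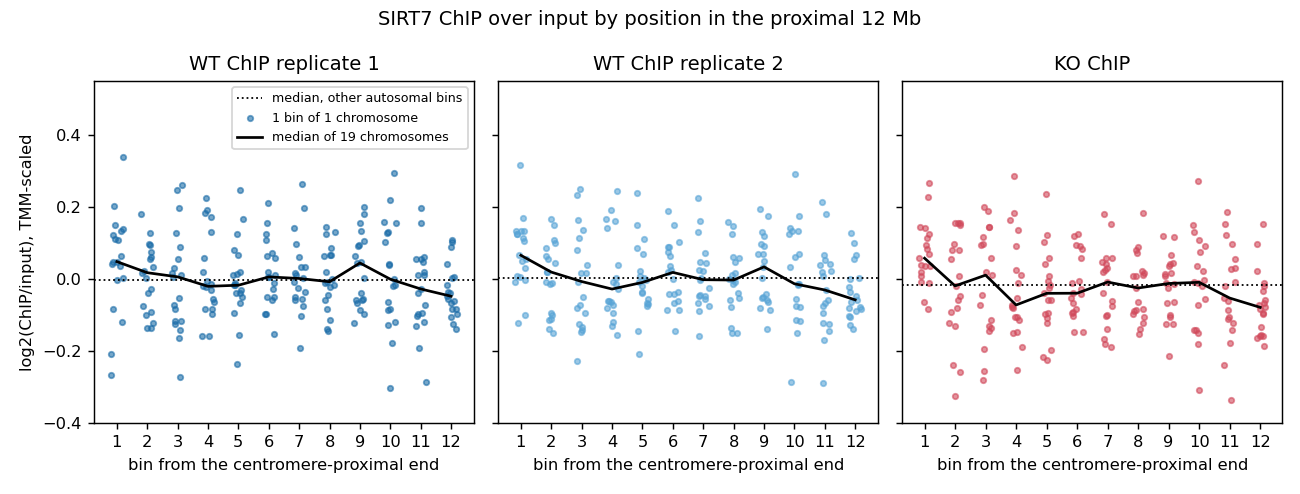
Log2(ChIP/input) (y axis) of the 228 proximal bins by position from the centromere-proximal end (x axis, 1 Mb bins), 1 panel per ChIP library; points are single bins, the line is the median of 19 chromosomes and the dotted line the median of the other autosomal bins. The first bin's medians are 0.048, 0.066 and 0.058, and single bins spread widely around the line at each position.

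Proximal medians of single chromosomes ran from -0.10 to 0.16 in WT replicate 1, while medians of the 12 positions ran from -0.048 to 0.048. On chromosome 14 the 12 proximal bins had a median of 0.16 and 0.13 in WT and 0.078 in KO, with 11 bins above and 1 below input in WT. Chromosome 17 had 0.13, 0.14 and 0.12, with 11 above and 0 below. On chromosomes 8 and 16 there were 9 above, with 3 and 0 below. Chromosome 5 had -0.10, -0.11 and -0.15, with 0 above and 11 below, and chromosome 3 had 1 above and 10 below.

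The rest of a chromosome often had another level than its proximal bins. On chromosome 16 the proximal medians were 0.11, 0.10 and 0.047 while the rest of the chromosome had -0.069, -0.067 and -0.089. On chromosome 5 the rest had 0.053, 0.054 and 0.021. Proximal medians were above the rest of their chromosome in all 3 ChIP libraries on 6 of 19 chromosomes and below it in all 3 on 10. The chromosomes that textbook maps give as carriers of ribosomal RNA gene arrays, 12, 15, 16, 18 and 19, had 60 proximal bins with medians of 0.018, 0.023 and 0.0074. The other 168 had -0.011, -0.0096 and -0.040. Their median gene numbers were 6 and 4, and the part of gene number in this was not tested. The carriers were not alike, with WT replicate 1 medians of 0.0028 (12), -0.039 (15), 0.11 (16), 0.0028 (18) and 0.065 (19). Medians of the other chromosomes ran from -0.10 (chromosome 5) to 0.16 (chromosome 14). Whether carrying an array plays a part was not tested.

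**Figure D3:**
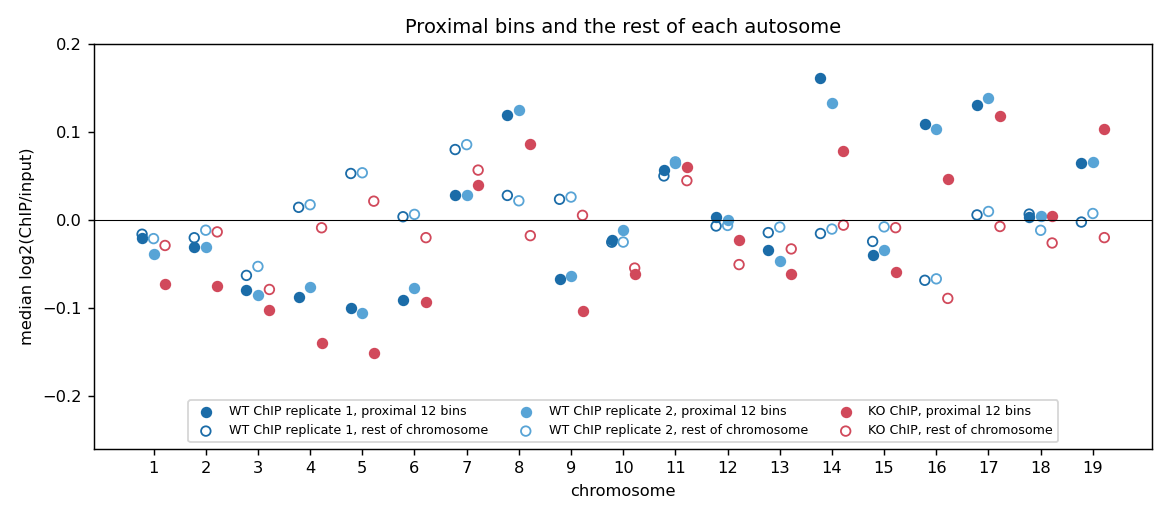
Median log2(ChIP/input) (y axis) of the 12 proximal bins (filled) and of the rest of each autosome (open), by chromosome (x axis) and ChIP library (colour). In both WT libraries the 4 highest proximal medians are those of chromosomes 8, 14, 16 and 17 and the 4 lowest those of chromosomes 3 to 6, while in KO chromosome 19 lies above 8, 14 and 16, and chromosome 9 lies below 3 and 6.

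Gene number moved with the ratio. Over the 228 bins its Spearman correlation with the ratio was 0.31 and 0.38 for WT and 0.45 for KO, and over the 2186 other autosomal bins 0.44, 0.52 and 0.53. The points share library, input and neighbouring bins, so no p is given. The median gene number was 5 in proximal bins and 6 in the others, and 25 proximal bins held no protein-coding gene. The KO library showed the relation at least as strongly as the WT libraries.

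The bins farthest above input in WT held genes of several kinds, and a value belongs to a whole bin and not to a gene in it. Chromosome 8 from 12000001 to 13000000, with Sox1 and Atp11a, a phospholipid flippase, had 63118 and 60044 reads (WT ChIP), 2042 (KO ChIP), 66287 (WT input) and 74306 (KO input). The 3 ChIP libraries were at 0.29, 0.29 and 0.27, and the genotypes differed by less than the KO counting error. In the fit this bin was 1.23-fold over input in WT (log2 0.29, SE 0.019; edgeR adjusted p 6.24e-50). The first bin of chromosome 11, with Pes1, a factor of ribosome assembly, and Limk2, a kinase of actin regulation, had a higher value of 0.33. Its SE was 0.10 (edgeR adjusted p 0.00278), and limma-voom did not call it (adjusted p 0.117). Nor did edgeR with no dispersion floor (adjusted p 0.78), a fit in which edgeR returned wrong deviances.

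Chromosome 16 gave 2 of the 10 highest: 5000001 to 6000000, where Rbfox1, a splicing regulator, starts (0.26), and 9000001 to 10000000, with Grin2a, an NMDA receptor subunit (0.24). Chromosome 17 gave 3. These were 7000001 to 8000000 with Rps6ka2 and Tagap (0.24), 13000001 to 14000000 with Sod2, the mitochondrial superoxide dismutase (0.21), and 8000001 to 9000000 with T, the mesoderm factor brachyury, and Ccr6, a chemokine receptor (0.20). Chromosome 12 gave 5000001 to 6000000 with Klhl29 (0.24) and 12000001 to 13000000 with Mycn, of the MYC family (0.20). Chromosome 19 from 6000001 to 7000000 held 46 genes, among them Men1, which encodes the tumour suppressor menin, Bad and Esrra (0.23). In KO these bins were at 0.15 to 0.29, with the exception of chromosome 17 from 7000001 to 8000000 and from 8000001 to 9000000, at 0.041 and 0.12.

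Bins far below input held few genes. Chromosome 5 from 12000001 to 13000000, in which Sema3d is the 1 protein-coding gene that starts, had 57036 and 54992 reads (WT ChIP), 1708 (KO ChIP), 90718 (WT input) and 92965 (KO input). The ChIP libraries were at -0.30, -0.29 and -0.31, close together in both genotypes. The fit gave 0.815-fold of input in WT (log2 -0.30, SE 0.018; edgeR adjusted p 8.98e-54). The next bin, with Sema3a, an axon repellent of the same family, was at -0.29 in the fit for WT and -0.34 for KO.

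The other low bins in WT were chromosome 13 from 5000001 to 6000000 with Klf6, a zinc finger transcription factor (-0.25), and chromosome 4 from 7000001 to 8000000 with no gene start (-0.22). Chromosome 4 from 13000001 to 14000000, with the corepressor gene Runx1t1, was at -0.18, and chromosome 12 from 9000001 to 10000000, with Osr1, a factor of kidney development, was also at -0.18. Further bins were those of Thsd7a on chromosome 6 (12000001 to 13000000, -0.17), Pdgfd, a platelet-derived growth factor, on chromosome 9 (6000001 to 7000000, -0.16), Ptger4, a prostaglandin E2 receptor, on chromosome 15 (5000001 to 6000000, -0.15) and Il7, a lymphocyte growth factor, on chromosome 3 (7000001 to 8000000, -0.15). All 10 were also below input in KO, from -0.15 to -0.34.

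Gene groups were followed through lists chosen with earlier results of these data known, so their counts are descriptions and are to be read beside the 83 above and 87 below among all 228. The lists of transcription factors of development, imprinted loci, class I cytokines, fatty acid genes and chromatin genes name only genes of proximal bins. They are picked examples and not whole classes. Sox1 and Fezf2, whose bins were above input in both WT libraries, are not listed, and unlisted factors were not counted. Of 19 bins that hold the listed transcription factors of development, 11 lay below input in WT, 5 above and 3 were not called. Their median was -0.083 and -0.080 in WT and -0.067 in KO. Bins below included those of Klf6, Osr1 and Runx1t1, of Foxp2 (-0.13) and Gata3 (-0.097), and bins above those of Mycn and T and that of Plag1 (0.12). Matrix metalloproteinases and caspases, proteases of matrix and of cell death, filled 2 bins of chromosome 9, both below input at -0.15 and -0.085.

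Genes with ribosomal protein symbols start in 7 proximal bins, of which 5 lay above and 1 below input. Medians were 0.12 and 0.12 in WT and 0.088 in KO. Among the 5, the first bin of chromosome 8 (0.13) is counted only through Rps23rg1, a retrogene that the symbol pattern took in. Rpl28 (0.15), Rps9 (0.11) and Rps20 (0.12) are examples, and the bin of Rpl37 was below, at -0.15. For mitochondrial ribosomal proteins 6 of 9 bins were above and 2 below. Vomeronasal receptors gave 12 bins, 5 above and 0 below, with a median unassigned share of 64.4% in WT input. Zinc finger proteins gave 7 above and 3 below of 13, and olfactory receptors 3 and 3 of 6.

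Imprinted loci, expressed from 1 parental allele, lay in 8 bins, with 3 above and 1 below input in WT. The bin of Peg3 and Usp29 on chromosome 7 was at 0.18, that of Igf2r and Airn on chromosome 17 at 0.13, and that of Peg10 and Sgce on chromosome 6 at -0.14. Genes of chromatin and DNA methylation had 3 of 10 bins above and 2 below. The latter were the first bin of chromosome 12, where the WT libraries disagreed, and a bin of chromosome 1 (-0.075) that is counted only through Rrs1, a factor of ribosome assembly that the list holds. Class I cytokines and their receptors had 1 of 7 above and 3 below, and collagens 1 of 3 and 2. A list of fatty acid genes had 2 of 4 above and 1 below, and its uncalled bin is counted only through Fth1, which encodes the heavy chain of ferritin, an iron store. Col4a1 and Col4a2, of basement membranes, share a bin at 0.18, and Fads1 to Fads3, the fatty acid desaturases, one at 0.14.

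KO ChIP over input measures what the antibody and the procedure brought down in cells labelled SIRT7-KO. Of the 228 proximal bins 47 lay above and 70 below input, 51.3%, beside 50.2% of all bins tested, 21.6% above and 28.7% below. Bins called in both genotypes were above input in 45 cases and below in 59, and 0 bins were called in opposite directions, 19.7%, 25.9% and 0% of the 228. Over all bins tested the shares were 20.4%, 24.4% and 0.271%, close to those of the proximal bins. Over the proximal bins the WT mean and KO had a Spearman correlation of 0.84, and over the other autosomal bins of 0.86. The highest KO bins were chromosome 19 from 6000001 to 7000000 (0.29) and the Sox1 bin (0.27). The lowest were the bin of Sema3a (-0.34), that of Peg10 and Col1a2 on chromosome 6 (-0.33) and that of Sema3d (-0.31).

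The count for KO depends on the error model. It was 34 with limma-voom. With no dispersion floor it was 26, 5 above and 21 below, but in that fit edgeR returned wrong deviances. The lean toward bins below input depends on the scaling, with 53 above and 53 below under TMM factors from autosomal bins and 50 and 50 without bins of extreme input. For WT ChIP over input the same settings gave 69 above and 97 below, and 60 and 90.

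WT minus KO asks where the ChIP over input of the genotypes differed. In 9 of 228 proximal bins, 3.95%, WT exceeded KO, and in 0 was it lower, beside 2.83% of all bins tested, 2.44% higher and 0.387% lower. Before adjustment 40 of the 228 had an edgeR p under 0.05, beside 416 of 2186 other autosomal bins. Both WT libraries were above KO in each of the 9 bins. They share the WT input and the KO value, and the bins were called on their mean, so this adds little. The direction and number of calls rest on the scaling and the error model. With TMM factors taken from autosomal bins alone 1 was higher and 6 were lower, without bins of extreme input 1 and 6, with median-ratio size factors 6 and 2, with library totals 1 and 0. DESeq2, limma-voom and edgeR with no dispersion floor each gave 0, with 21, 8 and 18 proximal bins at an unadjusted p under 0.05. The fit with no floor had wrong deviances (median 92.4 against 0.466 computed directly), so its 0 carries little weight. It is among the 10 alternatives counted below.

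The bin of Rps6ka2, a kinase of the MAPK pathway, and Tagap, a GTPase activator of T cells, on chromosome 17 from 7000001 to 8000000 differed most. It had 75889 and 71822 reads (WT ChIP), 1766 (KO ChIP), 82253 (WT input) and 75406 (KO input). The ChIP libraries were at 0.25 and 0.24 in WT and at 0.041 in KO. The fitted difference was 0.20 (SE 0.043; edgeR adjusted p 0.00104, from 1.88e-05 to 0.829 over 10 alternatives), and 7 of those 10 called it.

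Chromosome 6 from 4000001 to 5000000 holds the imprinted genes Peg10 and Sgce and the collagen gene Col1a2. The libraries were at -0.14 and -0.14 in WT and -0.33 in KO, all below input, with a fitted difference of 0.19 (SE 0.049; edgeR adjusted p 0.0117, from 0.00059 to 0.991). Its KO value comes from 1309 reads. The bin was among the 3 lowest in KO.

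Of the other 7 bins, 3 were above input in WT: chromosome 16 from 12000001 to 13000000 (0.16), chromosome 18 from 11000001 to 12000000 with Gata6, an endoderm and heart factor (0.16), and chromosome 14 from 12000001 to 13000000 with Cadps and Fezf2 (0.16). The remaining 4 were below input in WT and farther below in KO. These were the bins of Penk, an enkephalin precursor (chromosome 4, 4000001 to 5000000, 0.16), of Cyp7a1, the rate-limiting enzyme of bile acid synthesis, and Tox (chromosome 4, 6000001 to 7000000, 0.16), of Pclo and Sema3e (chromosome 5, 14000001 to 15000000, 0.15), and chromosome 3 from 6000001 to 7000000 (0.14). The values in parentheses are fitted WT minus KO differences. Adjusted p in edgeR ran from 0.0147 to 0.0462 for these 7, and each lost its call in at least 6 of 10 alternatives.

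**Figure D4:**
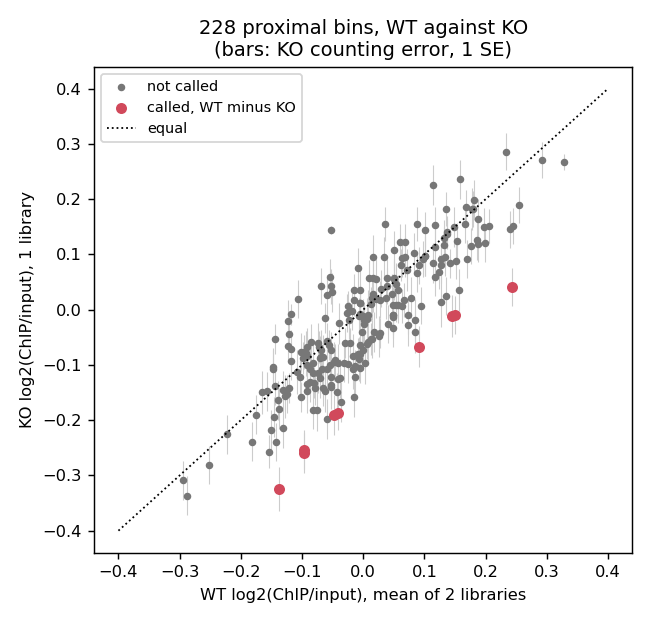
KO log2(ChIP/input) (y axis, 1 library, bars of 1 SE of counting) against the WT mean of 2 libraries (x axis) for 228 proximal bins; the dotted line marks equal values. The 9 bins called in WT minus KO lie below the line, and the bins as a whole follow it.

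The difference between the 2 inputs followed chromosomes in part. Each input is 1 library, so the spread between inputs was not measured, and the counts below borrow that of the WT ChIP pair. Of 228 proximal bins 76 were higher and 106 lower in WT input than in KO input, 79.8%, beside 76.8% of all bins tested, 35.2% higher and 41.6% lower. On chromosomes 14, 15, 17, 18 and 19 all 12 proximal bins were higher in WT input, and on chromosomes 4, 5, 8, 10, 12, 13 and 16 all 12 were lower. On chromosome 1, by contrast, 0 were called in either direction. The median WT input was 1.16 times KO input on chromosome 19 and 0.864 times on chromosome 12. The 3 highest differences were chromosome 19 from 8000001 to 9000000 (log2 0.28) and from 9000001 to 10000000 (0.27), and chromosome 14 from 14000001 to 15000000 (0.26). The lowest were chromosome 2 from 6000001 to 7000000 with Celf2 (-0.37), a single bin on a chromosome whose proximal median was -0.011, the Klhl29 bin of chromosome 12 (-0.27) and the Grin2a bin (-0.25). Each ChIP library was divided by the input of its own genotype, so such differences are in both terms. The WT minus KO values of the 228 bins correlated with the log2 input ratio at a Spearman of -0.22. Over the other autosomal bins the correlation was -0.23. The input ratio enters WT minus KO with a negative sign, so a negative correlation is in part built in.

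Alleles are compared as the genome1 share of assigned reads; the sources used here do not say which genome is C57BL6. In the inputs the shares already differed between the genotypes, by over 5 points in 187 of 228 proximal bins (82.0%). Among the other autosomal bins this was so in 1711 of 2186 (78.3%). Summed over the 12 proximal bins, chromosome 7 had 62.8% genome1 in WT input and 34.0% in KO input, chromosome 6 had 40.7% and 67.9%, and chromosome 1 had 35.6% and 62.0%. The ChIP libraries of WT stood nearer to their input. Their largest gaps were on chromosome 18, at -0.88 and -0.79 points, and on chromosome 3, at -0.68 and -0.44. On chromosome 7 they had 62.7% and 62.6%, on chromosome 6 40.3% and 40.4%, and on chromosome 1 36.0% and 35.8%.

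The KO ChIP share lay toward the WT input from its own input on 17 of 19 chromosomes. On chromosome 1 it was 60.7% (95% Wilson interval 59.7% to 61.7%; 9089 assigned reads), on chromosome 3 67.3% (66.3% to 68.2%) beside 69.97% in KO input and 50.8% in WT input, and on chromosome 15 42.1% (41.4% to 42.8%) beside 40.8% and 57.3%. The interval left the KO input on 10 chromosomes, and on all 10 the KO ChIP lay on the side of the WT input. By bins this was so for 151 of 228 proximal and 1384 of 2186 other autosomal bins, 66.2% and 63.3%. For WT ChIP the share lay toward the KO input in 117 and 120 of 228. What this has to do with the KO results was not tested.

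**Figure D5:**
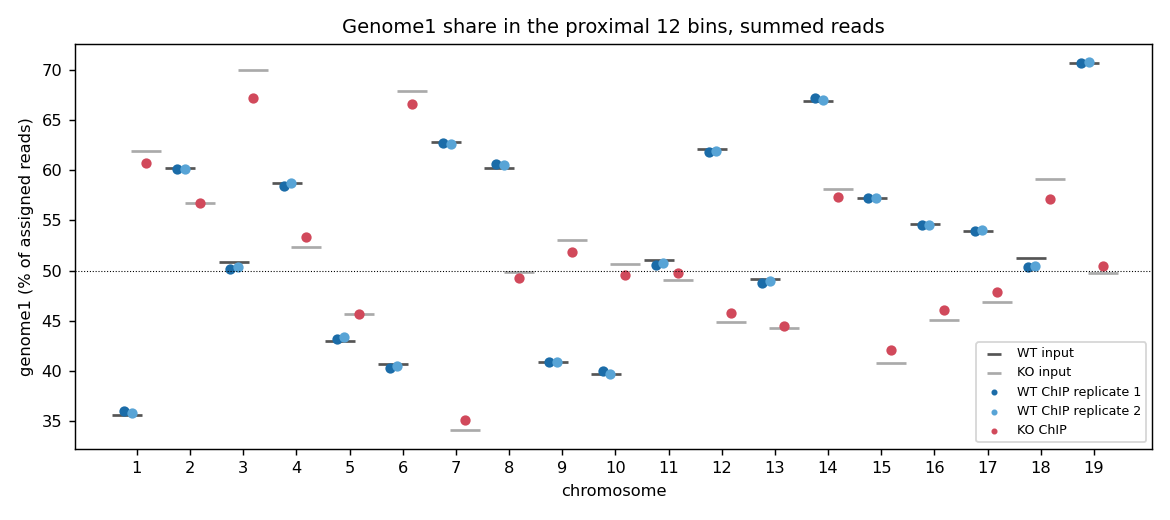
Genome1 share (% of assigned reads, y axis) in the summed reads of the 12 proximal bins of each autosome (x axis); bars are inputs and points ChIP libraries. WT ChIP points sit on the WT input, and the KO ChIP points lie off the KO input toward the WT input on 17 of 19 chromosomes.

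Genome1 over genome2 in WT ChIP over input was called in 6 of 228 proximal bins, 1 higher and 5 lower, 2.63%, beside 3.57% of the 2577 bins tested, 2.95% higher and 0.621% lower. Many of the calls over all bins lay on X: among the 2185 other autosomal bins 30 were called, 1.37%, 19 higher and 11 lower. The Sox1 bin was the 1 higher. Its genome1 share was 60.6% and 60.5% in WT ChIP, 58.3% in WT input, 48.7% in KO ChIP and 48.7% in KO input. Both WT libraries were above their input, the KO interval was 46.0% to 51.5%, and the genotype difference was not among those called. The fitted log2 difference was 0.14 (SE 0.024; edgeR adjusted p 0.00662).

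The 3 lowest were the first bin of chromosome 11 (log2 -0.15, SE 0.020; edgeR adjusted p 0.00142), the Thsd7a bin of chromosome 6 (-0.15) and chromosome 3 from 5000001 to 6000000 (-0.14). The last holds Zfhx4, a homeobox zinc finger factor, and Pex2, of peroxisome assembly, and its genome1 share was 47.1% and 47.6% in WT ChIP, 49.8% in WT input, 59.1% in KO ChIP and 68.1% in KO input. Both WT libraries were under their input by a few points.

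In KO ChIP over input 9 of 228 proximal bins were called, 5 higher and 4 lower, 3.95%, beside 4.54% of bins tested, 2.37% higher and 2.17% lower. In 8 of the 9 the KO ChIP share lay between the shares of the inputs. The bin of Lratd1 on chromosome 12, from 14000001 to 15000000, had 54.6% (51.3% to 57.7%; 922 assigned reads) in KO ChIP, 43.8% in KO input and 61.4% in WT input, a fitted log2 difference of 0.62 (SE 0.095; edgeR adjusted p 0.0203). The Zfhx4 bin had 59.1% (55.7% to 62.3%), and its difference was -0.57 (SE 0.090; edgeR adjusted p 0.0203). The Peg10 bin was at 61.5% (57.9% to 65.1%; 702 reads), against 68.3% in KO input and 40.4% in WT input. The others named by rank were chromosome 2 from 10000001 to 11000000 with Taf3, a subunit of TFIID (0.31), the Grin2a bin (0.30), and chromosome 9 from 8000001 to 9000000 with Yap1, the Hippo pathway effector, and Pgr, the progesterone receptor (-0.35).

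For the genotype difference of this allelic change 7 bins were called, 2 higher and 5 lower, 3.07%, beside 2.17% of bins tested, 1.13% higher and 1.05% lower. With no dispersion floor and with limma-voom the KO count and this count were both 0. Without bins of extreme input they were 5 and 3. The allelic fit with no floor also had wrong deviances (median 1.39 against 0.382 computed directly).

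Unassigned against assigned reads gave 0 calls among 228 proximal bins in WT and 0 in KO (edgeR), beside 0.0775% and 0.0387% of bins tested, with 0 and 3 at an unadjusted p under 0.05. Over all reads the WT ChIP libraries were 46.3% and 47.9% unassigned, and this library-wide difference entered the spread of the fit. The fit could hardly call a bin, so 0 calls do not show that the shares stayed at input. Limma-voom also gave 0 and 0, with 20 and 17 at an unadjusted p under 0.05. The shift had a direction that depended on the library: in 8 and 36 of 228 proximal bins the WT ChIP libraries had a larger unassigned share than their input, whereas in KO ChIP 171 did. Median shifts were -2.25 and -0.773 points in WT and 0.989 in KO, and over the other autosomal bins -2.40, -1.01 and 0.944. With each read class scaled separately, which removes such a library-wide shift, 67 proximal bins were called in WT, 21 higher and 46 lower. In KO 22 were called, 17 higher and 5 lower. The share over all bins tested is not given for this setting, so these counts do not set the proximal bins apart.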

How the data were processed

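SIRT7 ChIP and input DNA were sequenced in 5 libraries. The deposited values used are whole read counts per 1 Mb bin, made by the authors, with 4 columns per library (all reads, genome1, genome2, unassigned). Per the submitters' processing notes, reads were handled with Bowtie2 2.2.9, Trimmomatic 0.36, SAMtools 0.1.19 and FastQC 0.11.3 on mm10; the sources used here do not say how alleles were assigned. Reads from repeats can be placed in a wrong copy, which bears on bins with many unassigned reads. A deposited table of ratios was not used.

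Counts of 2582 bins (autosomes and X, mean of at least 100 reads) entered edgeR 4.0.16 in R 4.3.3, a quasi-likelihood fit of 4 group means with TMM scaling, with Benjamini-Hochberg adjustment over all bins and a threshold of 0.05. The spread comes from the WT ChIP pair alone (1 residual degree of freedom), and the single libraries were assumed to share it. Dispersions were raised to a floor of 1e-04, below which edgeR returned wrong deviances (median 92.4 against 0.466 computed directly). Allelic and unassigned fits had library as a block. The scripts were tested on simulated data. Descriptive values are log2 of TMM-scaled CPM plus a pseudocount of 1, ChIP minus own input. Genes and start regions come from RefSeq tables of GRCm38.p6, matched by position. Other settings tried were voom in limma 3.58.1, DESeq2 1.42.0, other floors, scalings, pseudocounts and count minimums, leaving out bins of extreme input, and leaving out either WT ChIP library. Leaving out the first bins of chromosomes 9, 11 and 12, or the KO libraries, was chosen after seeing the data.

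The members, lists and tests were chosen with earlier results of these data known. Bins named were the 10 highest and 10 lowest called bins in WT ChIP over input and in WT minus KO in which the WT libraries had 1 sign, the 3 highest and 3 lowest called otherwise, and first bins and bins of the gene lists, given as counts with examples, with up to 3 genes each. Of the ranked bins, 1 in KO ChIP over input is not reported here.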

Additional observations from a re-analysis of the deposited data

Results flagged for a closer look

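The 2 genotypes differed in their ChIP over input by a test of the difference itself in 9 proximal bins, 3.95% beside 2.83% of all bins tested. The count was 0 with DESeq2, limma-voom and edgeR with no dispersion floor, the last a fit with wrong deviances. With TMM factors from autosomal bins 1 was higher and 6 were lower. WT minus KO in log2 was 0.20 on chromosome 17 (bin start 7000001), 0.19 on chromosome 6 (4000001), 0.16 on chromosome 4 (4000001), 0.16 on chromosome 16 (12000001), 0.16 on chromosome 4 (6000001), 0.16 on chromosome 18 (11000001), 0.16 on chromosome 14 (12000001), 0.15 on chromosome 5 (14000001) and 0.14 on chromosome 3 (6000001). The KO side of each is 1 library of 1309 to 2258 reads in the bin.

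The genotypes also differed in their allelic ChIP over input in 7 proximal bins, 3.07% beside 2.17% of all bins tested. The count was 0 with limma-voom and with no dispersion floor, where deviances were wrong, and 3 without bins of extreme input. The log2 difference WT minus KO of genome1 over genome2 was 0.43 on chromosome 3 (5000001, Zfhx4) and 0.25 on chromosome 10 (13000001, Plagl1). It was -0.26 on chromosome 10 (11000001), -0.27 on chromosome 15 (7000001), -0.28 on chromosome 2 (10000001), -0.32 on chromosome 11 (3000001) and -0.67 on chromosome 12 (14000001). On chromosome 11 the genome1 share was 40.2% and 40.7% in the WT ChIP libraries beside 43.0% in their input. In KO ChIP it was 43.2% beside 40.4%. In the same order the chromosome 12 bin had 61.1%, 60.2%, 61.4%, 54.6% and 43.8%. The chromosome 2 bin had 63.3%, 63.2%, 62.7%, 62.5% and 57.3%. Chromosome 10 from 13000001 had 39.8%, 39.5%, 40.0%, 46.1% and 50.7%. The Zfhx4 bin had 47.1%, 47.6%, 49.8%, 59.1% and 68.1%. In each of these the KO ChIP share lay from its input toward the WT input, as on 17 of 19 chromosomes. What this has to do with the calls was not tested.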

How the results depend on the processing

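Counts of called proximal bins that left the reported value by over 1.5 times were these. KO ChIP over input (117) became 34 with limma-voom and 26 with no dispersion floor. With no floor edgeR returned wrong deviances in the all-read and allelic fits, so values of that setting, here and below, carry little weight. WT minus KO (9) became 0 with DESeq2, 0 with limma-voom, 0 with no floor, 1 with library totals and 23 with a floor 2 times as high, 18 higher and 5 lower. The allelic KO count (9) became 15 with classes scaled separately, 21 with the higher floor, 0 with limma-voom, 0 with no floor and 5 when bins of extreme input were left out, and the allelic WT minus KO count (7) became 15, 0, 0 and 3 for the last 4 of these. The unassigned counts (0 and 0) became 67 and 22 with classes scaled separately, an alternative chosen after seeing the data. The share over all bins tested is not given for it. The cause was not tested beyond what each alternative changes. WT ChIP over input (170) ranged from 146 to 176, and the inputs (182) from 162 to 191. Of the 20 bins named for WT, 2 fell out without extreme input, and the first bin of chromosome 11 lost its call with limma-voom (adjusted p 0.117) and with no floor (adjusted p 0.78).

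The median log2 difference, proximal minus other autosomal bins, was -0.00051 in WT and -0.0026 in KO, and it became 0.0080 and 0.0054 when the last 12 bins of each chromosome were left out of the others; leaving out 1 WT library gave -0.0042 and 0.0032. For the unassigned share, summed counts raised the difference to 5.49 points (WT ChIP), 5.86 (KO ChIP), 4.96 (WT input) and 5.19 (KO input), and with extreme-input bins left out it was 2.68 in WT ChIP, 2.89 in KO ChIP and 2.18 in WT input. The correlation with position became -0.053 in WT and -0.071 in KO without the first bins, and -0.10 and -0.13 with 1 WT library left out. No paired analysis was possible because only the WT ChIP libraries carry replicate numbers and the other groups are single libraries. Leaving out a WT library also leaves no residual degrees of freedom, so those values have no test. A KO value rests on a median of 1806 reads per bin, which limits differences that can be seen.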
